A study of Sus scrofa with 8 samples.

Results

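Cadherins are cell surface proteins that hold neighbouring cells together through calcium-dependent contacts between their extracellular repeats. Classical cadherins bind catenins through their tails, and these catenins link the contact to actin. Protocadherins share the extracellular repeats but not the catenin-binding tail, and the very large FAT and DCHS proteins act in cell polarity and growth control. In the joint, the lining of the synovial membrane is built by fibroblast-like cells whose adhesion to each other depends in mice on cadherin 11.

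The members described here are the probe sets of a porcine expression array whose gene symbol is a numbered CDH or PCDH gene, FAT1, FAT3, FAT4, DCHS1, or one of the catenins CTNNA2, CTNNB1 and CTNND1. By this rule 92 of 47722 probe sets were members. They stood for 39 of the 13755 genes named on the array, of which 22 were cadherins, 10 protocadherins, 4 FAT or DCHS genes and 3 catenins. The rule read gene symbols and no measured value, but it was chosen with earlier results of these data known. No probe set carried the symbol CTNNA1 or that of a clustered protocadherin (PCDHA, PCDHB, PCDHG), so those genes were not analysed here. Of the 39 genes, 12 had 1 probe set and 27 had several, and 11 probe sets carried the array's mark for probes shared between transcripts.

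The cells were undifferentiated synovial mesenchymal stem cells of passage 3, grown from the stifle joints of male piglets aged 59 days. Angeln Saddleback (AS) and German Landrace (DL) pigs, 3 animals per breed, gave cells from adipose synovium (FP) and from fibrous synovium (FS), which made 4 groups of 2 arrays: AS-FP, AS-FS, DL-FP and DL-FS. The study asked whether breed and type of synovium set apart the transcripts of these cells. RNA came from cell pools, and the labels tie no array to an animal or a culture, so the p-values below take in nothing beyond the variation from array to array, some of which may be technical. The array medians were 4.58 to 4.64 on the log2 scale, any pair of arrays correlated at r of 0.982 to 0.990 across probe sets, and background probe sets had medians of 2.66 to 2.81. One array stood apart in a hybridisation control, with a median of 7.59 for the bioB probe sets on DL-FP 1, against 8.50 to 8.95 on the other arrays.

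Values are log2 intensities as the authors deposited them, and a difference of 1 is a doubling. The brightness of a probe set also depends on its probes, so the level of 1 gene is set against background here and not against that of another gene. A gene counted as above background when the mean of its brightest probe set exceeded the highest background median of the arrays in each of the 4 groups. Differences were tested with limma over all 47722 probe sets. They were called where the Benjamini-Hochberg adjusted p did not exceed 0.1. Arrays with the same replicate number deviated together, and member results whose call changed when that number entered the fit as a block are given with both values.

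The labelled cell type was checked against its markers. Vimentin (VIM) averaged 13.34 and the collagen gene COL1A2 13.14, and 9 of the 10 fibroblast and mesenchymal stem cell markers were measured, all of them above background. NT5E, the gene of the surface marker CD73, was the dimmest of them at 3.01. Of these markers CD44 gave 0.29 for AS minus DL (limma adjusted p = 0.654, or 0.0617 with the block) and ENG -0.27 (adjusted p = 0.329, or 0.0745 with the block), and no other was called between breeds or tissues. Markers of other cells were also read above background, 3 of 4 measured for macrophages and leukocytes, 4 of 5 for epithelium and 6 of 7 for pericytes and smooth muscle. The counts were 5 of 6 for adipocytes, 7 of 7 for endothelium, 3 of 4 for skeletal muscle and 3 of 3 for Schwann and neural cells, with NCAM1 at 9.39. Of all probe sets, 73.2% were above background in all 4 groups. The leukocyte gene PTPRC (CD45) at 2.08 and the pericyte gene RGS5 at 1.99 were below background in all 4 groups, and the epithelial gene EPCAM at 2.74 was below it in all groups except DL-FP.

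Cadherin family transcripts were read above background for 31 of the 39 genes, and for 8 they were not: PCDH15, CDH17, PCDH12, CDH10, CDH19, CDH9, PCDH20 and PCDH10. Of all 92 member probe sets, 63 (68.5%) were above background in all 4 groups, against 73.2% of all probe sets, and 27 were at or below it in all 4 groups. The brightest probe set averaged 6 or more for 12 genes. These were 5 of the 10 protocadherins, 4 of the 22 cadherins, 2 of the 4 FAT and DCHS genes and 1 of the 3 catenins. The member probe sets varied about as much over the 8 arrays as the array as a whole, with a median SD of 0.198, against 0.199 for all probe sets.

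**Figure D1:**
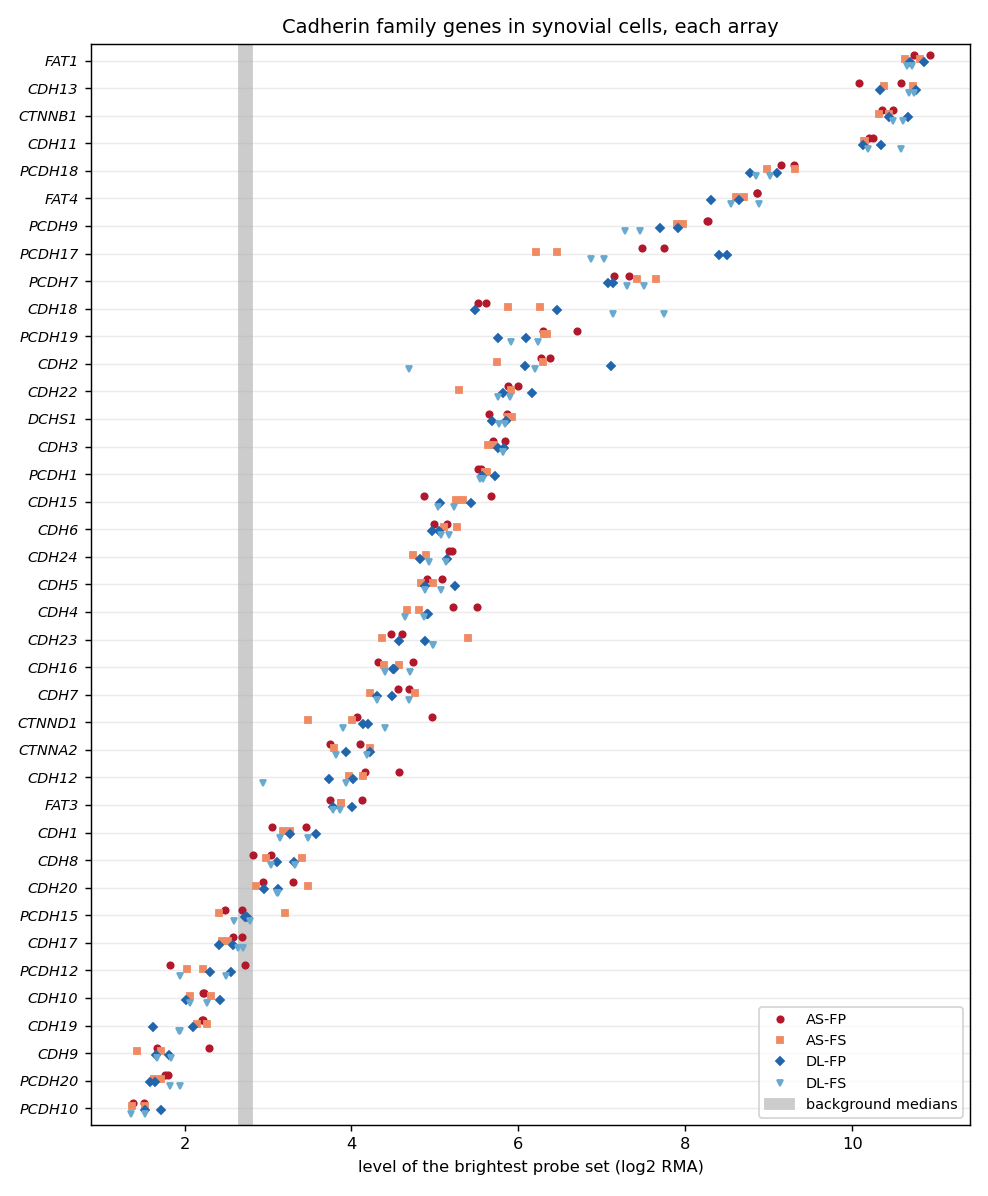
Level of the brightest probe set (log2 RMA, horizontal axis) of each of the 39 genes on each of the 8 arrays, with the range of the background medians as a grey band. On average the 8 genes at the bottom lie in or below the band, the arrays of most genes lie close together, and PCDH17, CDH18 and CDH2 spread most among the brighter ones.

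Among the classical and related cadherins, CDH11 and CDH13 were far above background in all groups and showed no called difference. CDH11 (cadherin 11, also called osteoblast cadherin) read 10.25 and 10.20 on the AS-FP arrays, 10.16 and 10.13 on AS-FS, 10.13 and 10.35 on DL-FP and 10.18 and 10.58 on DL-FS. The AS and DL arrays overlapped, and the AS minus DL difference was -0.13 ± 0.10 (SE, n = 4 arrays each, limma adjusted p = 0.825). CDH13 (T-cadherin), which is held in the membrane by a lipid anchor and binds adiponectin, read 10.58 and 10.08 on AS-FP, 10.73 and 10.38 on AS-FS, 10.76 and 10.33 on DL-FP and 10.74 and 10.67 on DL-FS. Its tissues overlapped as well, with an FP minus FS difference of -0.19 ± 0.15 (SE, limma adjusted p = 1).

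CDH2 (N-cadherin), the classical cadherin of neural and mesenchymal cells, varied widely between the replicate arrays of DL. It read 6.38 and 6.26 on AS-FP, 6.29 and 5.75 on AS-FS, 7.11 and 6.08 on DL-FP and 6.19 and 4.69 on DL-FS. The lowest array was DL-FS 2 and the highest DL-FP 1, and the FP and FS arrays overlapped. FP minus FS was 0.73 ± 0.34 (SE) and was not called (limma adjusted p = 1), and single arrays moved it. Leaving out DL-FS 2 gave 0.35, leaving out DL-FP 1 gave 0.47, and leaving out DL-FS 1 gave 1.103, with no call in any of them. Its other 3 probe sets averaged 1.67 to 3.40, close to or below background. Over the 4 probe sets of the gene, FP minus FS was 0.24 to 0.73, with none called.

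CDH1 and CDH5 mark other tissues. CDH1 (E-cadherin), the adhesion protein of epithelia, averaged 3.30, with 3.46 and 3.05 on AS-FP, 3.18 and 3.27 on AS-FS, 3.57 and 3.26 on DL-FP and 3.48 and 3.14 on DL-FS. That is little above the background medians, and the groups overlapped. CDH5 (VE-cadherin), the cadherin of endothelial junctions, averaged 4.98, with 4.90 and 5.08 on AS-FP, 4.83 and 4.98 on AS-FS, 5.24 and 4.88 on DL-FP and 5.08 and 4.88 on DL-FS. Its 3 probe sets all carried the shared-probe mark, and no difference between breeds or tissues was called for either gene. In such bulk samples, fewer cells of a type and less RNA per cell cannot be told apart.

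CDH18, a classical cadherin known mainly from brain, had the largest differences of any member that limma did not call between breeds or tissues. Its brighter probe set, SNOWBALL_018565_st, read 5.61 and 5.51 on AS-FP, 6.26 and 5.87 on AS-FS, 6.46 and 5.48 on DL-FP and 7.74 and 7.13 on DL-FS. Both DL-FS arrays lay above the other 6, and the DL-FP arrays overlapped both AS groups. AS minus DL was -0.89 ± 0.23 (SE), and limma's adjusted p was 0.239 without the replicate block and 0.0256 with it. FP minus FS was -0.98 ± 0.23 (SE), with an adjusted p of 0.275 without the block and 0.0239 with it. Within DL, FP minus FS was -1.47 (adjusted p = 0.41, or 0.045 with the block), and within FS, AS minus DL was -1.37 (adjusted p = 0.352, or 0.0363 with the block). The FP minus FS difference was also called without the block among probe sets with an SD above 0.25 (adjusted p = 0.0978). The second probe set of the gene, at a mean of 3.25, gave -0.21 for AS minus DL and 0.09 for FP minus FS. Within FP, AS minus DL was -0.41 and uncalled, and it turned to 0.08 without DL-FP 1, the array with the low hybridisation control.

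Fitted over all probe sets without the block, limma called only protocadherin probe sets among the members. In AS minus DL, 3 of the 92 probe sets were called (3.26%), against 0.666% of all probe sets. One was higher in AS, where 0.231% of all probe sets were, and 2 were lower, where 0.436% were. With the replicate block 6 were called, against 3.04% of all probe sets, and these were 2 probe sets each of PCDH17 and PCDH9 and 1 each of PCDH19 and CDH18. In FP minus FS, 2 were called, against 0.264% of all probe sets, both of PCDH17 and both higher in FP (0.159% of all in that direction), and 3 with the block, against 0.987%. Of these few calls, 2 of the 3 in the first comparison and both in the second are probe sets of 1 gene, PCDH17. The linear model of the study's methods does not moderate variances between probe sets. Run here over all 47722 probe sets, without the filters of the study, it called 0 members in each comparison. It gave 9 members at an unadjusted p under 0.05 for breed (9.78%, against 7.95% of all probe sets) and 11 for tissue (12%, against 5.35%). Among probe sets with an SD above 0.25, a setting chosen after the values were seen, it called 1 member for AS minus DL and 0 in the other comparisons.

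**Figure D2:**
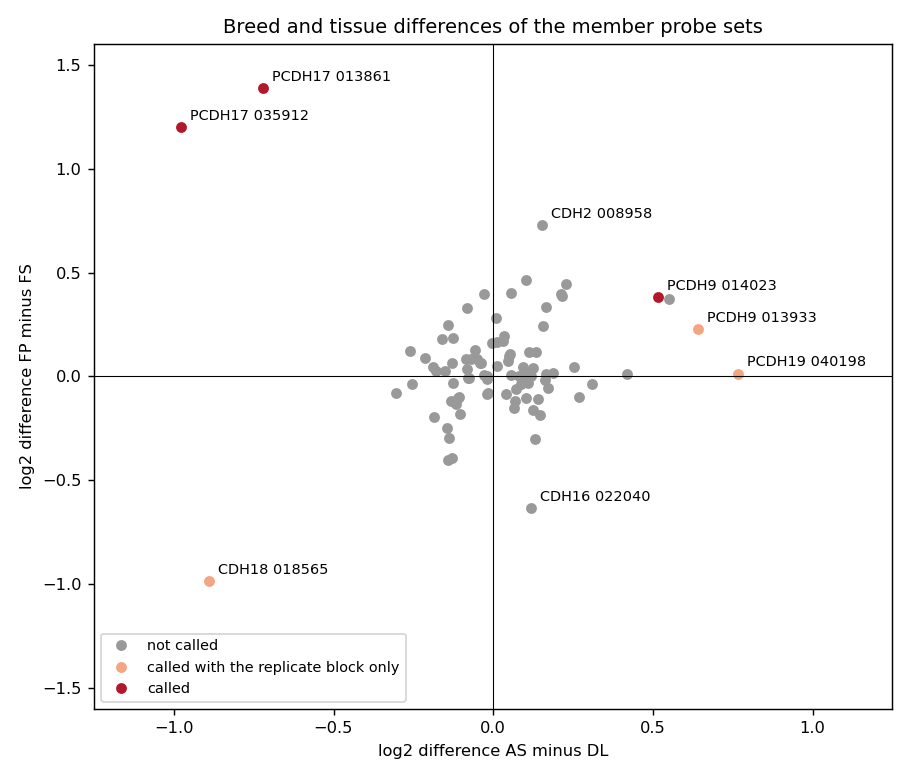
AS minus DL difference (log2, horizontal axis) against FP minus FS difference (log2, vertical axis) of the 92 member probe sets, coloured by whether a breed or tissue difference was called, called with the replicate block only, or not called. Most points lie within 0.5 of 0 on both axes, and the 2 called PCDH17 probe sets lie apart at the upper left, lower in AS and higher in FP.

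PCDH17, a non-clustered protocadherin that in mice gathers the WAVE actin-regulating complex at contacts between growing axons, differed between both the tissues and the breeds. Its brightest probe set, SNOWBALL_013861_st, read 7.48 and 7.74 on AS-FP, 6.21 and 6.46 on AS-FS, 8.40 and 8.49 on DL-FP and 7.02 and 6.87 on DL-FS. All 4 FP arrays lay above all 4 FS arrays, and within each tissue both AS arrays lay below both DL arrays. FP exceeded FS by 1.39 ± 0.10 (SE, n = 4 arrays each), a 2.62-fold difference, with a limma adjusted p of 0.00669, and the call held without each of the 8 arrays in turn (adjusted p = 0.0205 to 0.0581). AS minus DL was -0.72 ± 0.10 (SE), 1.65-fold lower in AS, with an adjusted p of 0.036. That breed call was lost without DL-FP 1, DL-FP 2, DL-FS 1, AS-FP 1 or AS-FS 1, and the adjusted p ran over 0.083 to 0.18 when each of the 8 arrays was left out. It was also lost among probe sets with an SD above 0.25 (adjusted p = 0.117). Over all probe sets, the linear model of the methods called neither difference of this probe set. Its adjusted p was 0.338 for FP minus FS and 0.289 for AS minus DL.

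A dimmer PCDH17 probe set, SNOWBALL_035912_st, showed the same directions at a lower level. It read 4.48 and 4.24 on AS-FP, 3.59 and 3.67 on AS-FS, 5.71 and 5.90 on DL-FP and 4.21 and 4.07 on DL-FS. Every FP array lay above every FS array, though AS-FP 2 at 4.24 was only just above DL-FS 1 at 4.21, and the DL-FP arrays stood clear of the other 6. FP minus FS was 1.20 ± 0.13 (SE, limma adjusted p = 0.0149) and AS minus DL was -0.98 ± 0.13 (SE, adjusted p = 0.0222). Without DL-FP 2 both calls were lost, with adjusted p of 0.105 for the tissue and 0.127 for the breed, and both held without each of the other arrays. The remaining PCDH17 probe sets averaged 4.33 and 2.42, the second of them below background, and their FP minus FS differences were 0.18 and 0.08, neither called. For AS minus DL, the 4 probe sets of the gene gave -0.98 to -0.05. The value nearest 0 belonged to one of these remaining probe sets, and neither of them was called.

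**Figure D3:**
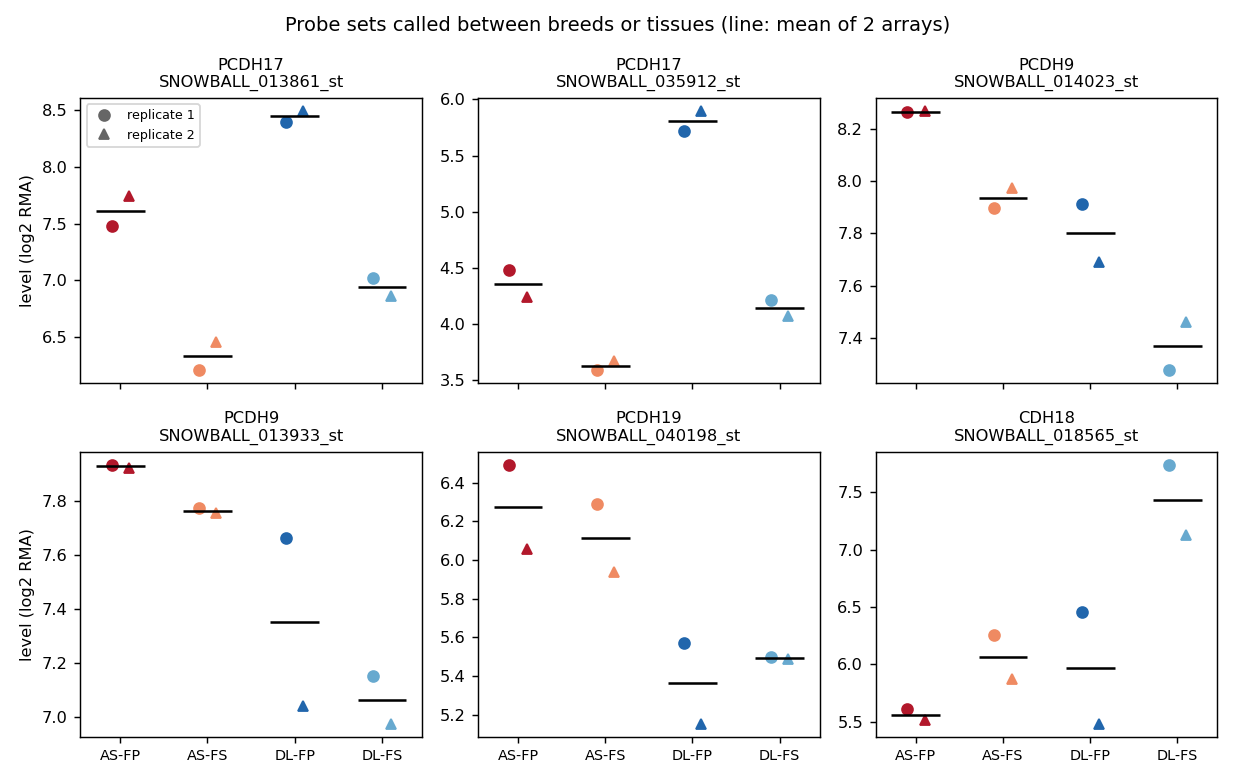
Level (log2 RMA, vertical axis, with its own scale in each panel) of the 6 member probe sets called between breeds or tissues with or without the replicate block, by group. Circles are replicate 1, triangles replicate 2, and lines the mean of the 2 arrays. FP lies above FS in both breeds for PCDH17, AS above DL in both tissues for PCDH9 and PCDH19 on average, and DL-FS above the other groups for CDH18.

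Within the breeds, PCDH17 kept its direction. In DL, FP exceeded FS by 1.50 (SNOWBALL_013861_st, limma adjusted p = 0.0553) and by 1.67 (SNOWBALL_035912_st, adjusted p = 0.0644), and these were the 2 members called there, where 0.044% of all probe sets were. In AS, FP exceeded FS by 1.27 in the first of them (adjusted p = 0.0609), the 1 member called in a comparison that called 0.0545% of all probe sets, and the other gave 0.73 (adjusted p = 0.477). With the replicate block 3 members were called in DL, against 0.434% of all probe sets, the added one being CDH18, and 1 in AS, against 0.495%. These within-breed calls of SNOWBALL_013861_st were each lost under 6 of the 8 omissions of 1 array, with an adjusted p of up to 0.474 in DL and 0.331 in AS. That of SNOWBALL_035912_st in DL was lost under all 8, at 0.106 to 0.507. The difference of FP minus FS between AS and DL was -0.93 ± 0.25 (SE) for SNOWBALL_035912_st and -0.23 ± 0.21 for SNOWBALL_013861_st, with adjusted p of 1 for each. No member passed that test, nor did any other probe set (0% called), and 3 members had an unadjusted p under 0.05 in it, against 3.58% of all probe sets. The linear model of the methods also called 0 members there.

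Within the tissues, PCDH17 was lower in AS than in DL in FP cells. SNOWBALL_035912_st gave -1.44 ± 0.18 (SE, limma adjusted p = 0.0371), 2.72-fold lower in AS, and was the 1 member called, where 0.212% of all probe sets were. That call was lost without either DL-FP or either AS-FP array, with adjusted p of up to 0.342. SNOWBALL_013861_st gave -0.83 (adjusted p = 0.144, or 0.044 with the replicate block), and with the block 3 members were called in FP, against 0.826% of all probe sets. In FS cells SNOWBALL_013861_st gave -0.61 and was not called (limma adjusted p = 0.388, or 0.108 with the block). There limma called 0 members, where it called 0.0943% of all probe sets, and 7 members had an unadjusted p under 0.05, against 6.88% of all. The linear model of the methods also called 0 there, and the fit with the block called 1, a probe set of CDH18, against 1.07% of all.

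PCDH9, a further non-clustered protocadherin, known from the nervous system, ran the other way between the breeds. SNOWBALL_014023_st read 8.26 and 8.27 on AS-FP, 7.90 and 7.97 on AS-FS, 7.91 and 7.69 on DL-FP and 7.28 and 7.46 on DL-FS. Within each tissue both AS arrays lay above both DL arrays, while AS-FS and DL-FP overlapped. AS minus DL was 0.51 ± 0.09 (SE), 1.43-fold higher in AS, and was called at a limma adjusted p of 0.0795 (0.0271 with the replicate block). The call was lost without any 1 of the 8 arrays, with adjusted p of 0.138 to 0.264, with variances moderated without a trend (0.188), and among probe sets with an SD above 0.25 (0.345).

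The second PCDH9 probe set above background pointed the same way. SNOWBALL_013933_st read 7.93 and 7.92 on AS-FP, 7.77 and 7.76 on AS-FS, 7.66 and 7.04 on DL-FP and 7.15 and 6.97 on DL-FS. All 4 AS arrays lay above all 4 DL arrays, with DL-FP 1 the nearest of them. AS minus DL was 0.64 ± 0.14 (SE), with a limma adjusted p of 0.147 without the block and 0.0357 with it, and it was also called without DL-FP 1 (adjusted p = 0.0529). The other 3 PCDH9 probe sets averaged 1.62 to 2.13, below background. For tissue, the 2 brighter PCDH9 probe sets gave FP minus FS of 0.38 and 0.23, neither called.

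PCDH19, a non-clustered protocadherin that in zebrafish binds N-cadherin and whose human gene is mutated in an X-linked epilepsy, was measured by 5 probe sets, all above background on average. SNOWBALL_040198_st read 6.49 and 6.06 on AS-FP, 6.29 and 5.94 on AS-FS, 5.57 and 5.15 on DL-FP and 5.50 and 5.49 on DL-FS. The AS arrays all lay above the DL arrays, with AS-FS 2 at 5.94 and DL-FP 1 at 5.57 the nearest. AS minus DL was 0.77 ± 0.15 (SE), 1.70-fold higher in AS, with a limma adjusted p of 0.116 without the block and 0.0163 with it. Within FP it was 0.91 (adjusted p = 0.329, or 0.0575 with the block). The brightest probe set, SNOWBALL_020494_s_st, read 6.71 and 6.30 on AS-FP, 6.31 and 6.35 on AS-FS, 6.09 and 5.75 on DL-FP and 5.91 and 6.24 on DL-FS. Its breeds did not overlap either, with 0.42 ± 0.14 (SE) and no call (adjusted p = 0.399, or 0.207 with the block). The other 3 probe sets gave AS minus DL of 0.09 to 0.15.

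The remaining bright protocadherins, PCDH7 and PCDH18, had no called difference. PCDH7 (NF-protocadherin) read 7.32 and 7.14 on AS-FP, 7.42 and 7.64 on AS-FS, 7.13 and 7.07 on DL-FP and 7.30 and 7.50 on DL-FS. FP arrays lay below FS arrays except that AS-FP 1 exceeded DL-FS 1. FP minus FS was -0.30 ± 0.10 (SE, limma adjusted p = 0.701), and the 4 probe sets of the gene gave -0.40 to -0.10. PCDH18 read 9.30 and 9.14 on AS-FP, 9.31 and 8.97 on AS-FS, 9.09 and 8.78 on DL-FP and 9.01 and 8.84 on DL-FS. Its breeds overlapped, with AS minus DL of 0.25 ± 0.11 (SE, adjusted p = 0.592).

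**Figure D4:**
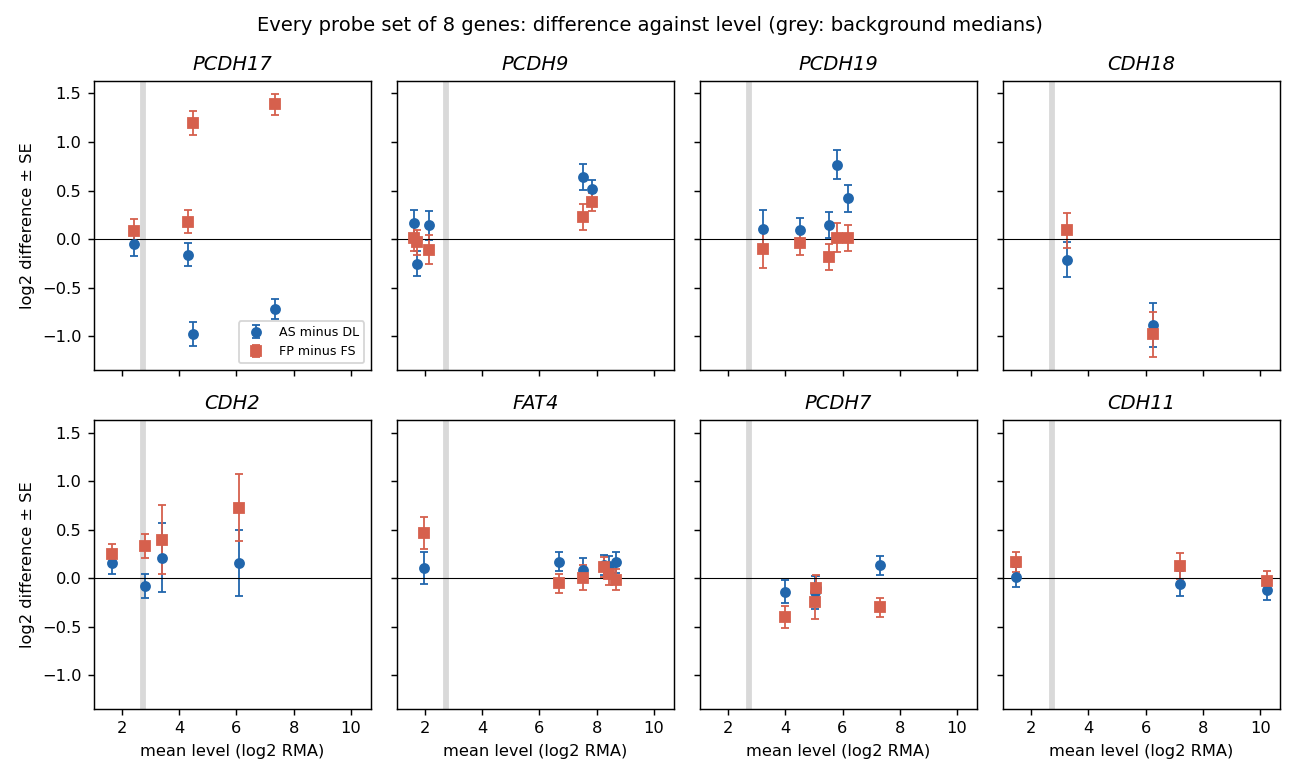
Difference with its SE (log2, vertical axis) of every probe set of 8 member genes against its mean level (log2 RMA, horizontal axis), with AS minus DL as circles and FP minus FS as squares. For PCDH17, PCDH9 and CDH18 the probe sets nearest the grey background medians show smaller differences than the brightest ones, and the 5 bright FAT4 probe sets lie near 0 throughout. A further PCDH17 probe set, well above these medians, also shows a small FP minus FS difference.

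FAT1, FAT4 and beta-catenin were bright and even across the groups. FAT1, which in mammals acts on actin and cell movement, read 10.94 and 10.74 on AS-FP, 10.81 and 10.63 on AS-FS, 10.86 and 10.69 on DL-FP and 10.72 and 10.66 on DL-FS. Its AS minus DL difference was 0.05 ± 0.09 and its FP minus FS difference 0.10 ± 0.09 (SE). FAT4, the receptor for DCHS1 in planar cell polarity, read 8.86 and 8.86 on AS-FP, 8.60 and 8.70 on AS-FS, 8.64 and 8.31 on DL-FP and 8.55 and 8.88 on DL-FS. AS-FP stood above DL-FP by 0.39 without a call (limma adjusted p = 0.789). CTNNB1 (beta-catenin), which joins cadherin tails to alpha-catenin and carries Wnt signals to the nucleus, read 10.48 and 10.35 on AS-FP, 10.44 and 10.32 on AS-FS, 10.67 and 10.44 on DL-FP and 10.48 and 10.60 on DL-FS. Its AS minus DL difference was -0.15 ± 0.09 (SE, adjusted p = 0.707).

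The other 25 member genes had no called probe set in any of the 7 comparisons, with a smallest adjusted p of 0.536 without the replicate block and 0.256 with it. The span between their highest and lowest group mean had a median of 0.22 and reached 0.92 in CDH12, a classical cadherin at a mean of 3.93. Over all members, 6 probe sets had AS and DL arrays that did not overlap, against 5.2% of all probe sets. For FP and FS the number was 7, against 2.79% of all. Differences of 0.5 or more were seen for 7 members between the breeds (7.61%, against 3.57% of all probe sets) and for 5 between the tissues (5.43%, against 2.45%). The median difference of the members was 0.03 for AS minus DL and 0.02 for FP minus FS, against 0.01 and 0.00 for all probe sets.

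Several members are neighbours in the gene order of the RefSeq annotation of Sscrofa11.1, which was used for order only. PCDH17, PCDH20 and PCDH9 follow each other on 1 chromosome, with 2 protein-coding genes between PCDH17 and PCDH20 and 1 between PCDH20 and PCDH9. Within this group PCDH17 was lower in AS, PCDH9 was higher in AS, and PCDH20, at a mean of 1.74, was below background. The breed calls of PCDH17 and PCDH9 were lost when single arrays were left out, as given above. CDH18, CDH12, CDH10, CDH9 and CDH6 stand next to each other with 0 protein-coding genes between them. Of these, CDH12 averaged 3.93 with uncalled differences opposite in sign to those of CDH18, at 0.55 ± 0.23 (SE) for AS minus DL and 0.37 ± 0.23 for FP minus FS. CDH10 at 2.20 and CDH9 at 1.76 were below background, and CDH6 averaged 5.09 with AS minus DL of 0.07 and FP minus FS of -0.12.

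Partners of the cadherins were described from 6 lists, each gene by its brightest probe set, and most members of each list were not called. Of 12 measured adherens junction partners 0 were called higher and 1 lower in AS, against 0.231% and 0.436% of all probe sets. The lower gene was CTNNAL1, which encodes a protein related to alpha-catenin. Its AS minus DL difference was -0.62 ± 0.12 (SE, n = 4 arrays each, limma adjusted p = 0.0997). Of 10 measured genes on a list of further cadherin-related genes, DCHS2 was called lower in AS, and the other 9 were not called. DCHS2 read 8.09 ± 0.46 in AS and 8.68 ± 0.09 in DL (SD, n = 4 arrays each), a difference of -0.59 ± 0.10 (SE, limma adjusted p = 0.0577). Its group means were 7.71 in AS-FP, 8.47 in AS-FS, 8.64 in DL-FP and 8.71 in DL-FS. Its FP minus FS difference was -0.42 (adjusted p = 0.261, or 0.0634 with the block), and -0.76 within AS (adjusted p = 0.214, or 0.0365 with the block), the direction opposite to that of PCDH17. Within FP its AS minus DL difference was -0.93 (adjusted p = 0.0657), and within FS it was -0.24 and not called (adjusted p = 0.806).

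No desmosomal gene was called among the 9 measured, whose levels were 2.45 to 4.81, in limma with or without the block. Of them 1 had an unadjusted p under 0.05 between the breeds and 1 between the tissues, against 8.72% and 5.1% of all probe sets. The 3 measured repressors of CDH1 transcription averaged 7.02 to 7.71, and of them ZEB2 gave 0.43 for AS minus DL (limma adjusted p = 0.21, or 0.0815 with the replicate block). Of the 6 measured genes of cadherin cleavage, PSEN2, a catalytic subunit of gamma-secretase, gave 0.47 for AS minus DL (adjusted p = 0.329, or 0.0499 with the block) and 0.55 for FP minus FS (adjusted p = 0.365, or 0.0446 with the block). Of the 9 measured WAVE complex genes, WASF3 gave -0.51 for AS minus DL (adjusted p = 0.212, or 0.0916 with the block).

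Of the pericyte and adipocyte markers, 1 of 7 and 1 of 6 were called higher in FP, where 0.159% of all probe sets were. The mean level of 7 measured pericyte and smooth muscle markers was 6.27 to 6.53 on the FP arrays and 5.88 to 6.08 on the FS arrays. Of them KCNJ8, a pericyte potassium channel, was higher in FP by 1.17 (limma adjusted p = 0.0759), its partner ABCC9 gave 1.54 (adjusted p = 0.18, or 0.00217 with the block), and the other 5 were not called. The mean level of 6 adipocyte markers was 4.94 to 5.26 on the FP arrays and 4.47 to 4.85 on the FS arrays. LPL, the lipoprotein lipase gene, was higher in FP by 1.59 (adjusted p = 0.0882), FABP4, a fatty acid carrier, gave 1.14 (adjusted p = 0.258, or 0.0246 with the block), and the other 4 were not called between the tissues, with 0.25 for ADIPOQ, 0.09 for PLIN1, -0.28 for LEP and -0.15 for CIDEC. The LPL mean in DL-FS, 2.55, was below the background medians, against 5.05 in AS-FP, 3.62 in AS-FS and 4.29 in DL-FP. The median FP minus FS difference was 0.13 over the pericyte list and 0.17 over the adipocyte list, against 0.00 over all probe sets. Between the breeds, PECAM1 was the 1 of 7 endothelial markers that was called, with the block only, at -0.53 for AS minus DL (adjusted p = 0.22, or 0.02 with the block). With the block 3.04% of all probe sets were called in that comparison. Of the pericyte and adipocyte lists, ADIPOQ gave 0.58 (adjusted p = 0.171, or 0.0445 with the block) and KCNJ8 0.52 (adjusted p = 0.426, or 0.0695 with the block) for AS minus DL. The other markers of these lists were not called between the breeds and ran both ways. The other adipocyte markers gave 0.92 for LPL, 0.33 for PLIN1, -0.004 for LEP, -0.24 for CIDEC and -0.48 for FABP4. Of the other pericyte and smooth muscle markers, ABCC9 gave -0.39 and MYH11 -0.12, and the rest gave 0.01 to 0.16. The mean level of the 7 endothelial markers was 4.76 to 4.90 on the AS arrays and 4.81 to 4.99 on the DL arrays. The part of these cells in the differences of PCDH17, PCDH9 and PCDH19 was not tested.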

How the data were processed

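Porcine Snowball Arrays were hybridised with RNA of 8 samples, 2 of each of 4 groups. The deposited values are log2 intensities, which the authors obtained with GCOS 1.1.1 as scanner software and Expression Console for the robust multichip average of each probe set. The authors' filters by detection and by SD were not applied to the table, and its 47845 probe sets less 123 controls were tested.

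A mean per group was fitted with limma 3.58.1 in R 4.3.3, with variances moderated on a trend (residual degrees of freedom 4, prior 4.33) and Benjamini-Hochberg adjustment over all probe sets within each of 7 comparisons. Differences are on the log2 scale of the summarised values, and fold differences are the antilogs of their size. The fit was tested on simulated data. Tables were joined in Python 3.11.15 with pandas 2.3.3.

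Arrays were paired by replicate number, because their deviations from the means of their groups correlated in 6 of 6 pairs of groups (r of 0.143 to 0.219), although the labels leave its meaning unstated. With this block the fit had 3 residual degrees of freedom.

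The members, gene lists and alternatives were chosen with earlier results of these data known. Symbols came from the platform annotation, which gave 1 for 26426 probe sets and none for 21296. All 39 member symbols were found in RefSeq. Values by array are given for genes called in any comparison, genes whose brightest probe set averaged 6 or more, and CDH1 and CDH5. At most 4 genes of a partner list are named. Alternatives were limma without the trend, the linear model of the methods without its Tukey-Kramer step, a filter on background, a filter on an SD above 0.25, quantile normalization, the replicate block, leaving out each array, and the mean over all probe sets of a gene. No sequences or coordinates were used here.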

Additional observations from a re-analysis of the deposited data

Results flagged for a closer look

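In 17 probe sets of the members described by array, 68 groups of 4 arrays (a breed or a tissue) were searched for a highest or lowest array far from the other 3 by Dixon's criterion. It marked 3, and chance marks about 1 in 20 groups. CDH11 (SNOWBALL_000971_st) read 10.58 on DL-FS 2, against 10.13 to 10.18 on the other FS arrays. CDH18 (SNOWBALL_018565_st) read 6.46 on DL-FP 1, against 5.48 to 5.61 on the other FP arrays. PCDH19 (SNOWBALL_020494_s_st) read 6.71 on AS-FP 1, against 6.30 to 6.35 on the other AS arrays.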

How the results depend on the processing

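The number of called members depended on the test. The linear model of the methods called 0 in each comparison when run over all probe sets, without the filters of the study. Among probe sets with an SD above 0.25, a setting chosen after the values were seen, it called 1 for AS minus DL and 0 in the others. limma without the trend called 0 for FP minus FS within DL and 0 within AS. With the SD filter alone, limma called 1 for AS minus DL and 3 for FP minus FS, the added one being CDH18 (adjusted p = 0.0978), and with the filter on background it also called PCDH19 for AS minus DL (adjusted p = 0.0952). With the replicate block, it called 6 for AS minus DL, 3 for AS minus DL in FP and 1 for AS minus DL in FS, and 3, 3, 1 and 0 in FP minus FS, in the same within DL, within AS and in its difference between the breeds. Without 1 array, 0 to 2 were called for AS minus DL, 1 to 2 for FP minus FS, 0 to 1 within DL, 0 to 1 within AS and 0 to 1 for AS minus DL in FP. Without DL-FP 2, these were 0 for AS minus DL and 1 for FP minus FS. Quantile normalization changed no call. Differences that were uncalled and under 0.2 in size were not followed, a limit set after the values were seen. Of those followed, 2 turned sign, both without DL-FP 1 and both uncalled: FP minus FS within DL of PCDH9 (SNOWBALL_013933_st) gave -0.0227 to 0.60 over the omissions and AS minus DL in FP of CDH18 (SNOWBALL_018565_st) gave -0.90 to 0.0802. With the mean over all probe sets in place of the brightest, the levels of 10 genes moved, CDH11 to 6.31 and PCDH9 to 4.17. Among the members, the block changed no call other than those given with it. With 2 arrays a group, the number of arrays limits the precision, and 27 member probe sets at or below background carry little information on differences.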
